A study of Mus musculus with 9 samples.

Results

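The genes described here are 9 transcription factors of the naive pluripotency network of mouse embryonic stem cells: Esrrb, Klf4, Klf2, Klf5, Tfcp2l1, Zfp42, Nanog, Prdm14 and Nr0b1. They were taken by symbol, as genes known for this network, with earlier results of these data known; no threshold on a measured value was used. All 9 were found among 35896 annotated genes with a transcript in the files, and 9 of 9 passed the filter on low counts that left 14648 genes for testing. The study asked what the Arp2/3 complex, the nucleator of branched actin networks, contributes when embryonic stem cells leave self-renewal. RNA was sequenced from E14, an established mouse embryonic stem cell line, in 3 groups of 3 libraries. Control cells with LIF2i were held in self-renewal by the cytokine LIF, the MEK inhibitor PD0325901 (1 µM) and the glycogen synthase kinase 3 beta inhibitor CHIR99021 (1 µM). Control cells without LIF2i had been deprived of all 3 for 72 h, which lets them differentiate. CK666 cells were deprived of LIF2i for the same 72 h with CK666 at 80 µM, a compound that blocks this complex. CK666 was dissolved in DMSO, and since no label states whether controls were given the solvent, drug and solvent cannot be told apart. All groups share the one line and a serum-containing medium, and the labels name no genetic change.

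In the naive state these factors bind each other's regulatory regions and keep one another transcribed. LIF acts through STAT3, which activates Klf4 and Tfcp2l1; inhibition of glycogen synthase kinase 3 relieves repression by TCF7L1 at genes such as Esrrb; and inhibition of MEK blocks the FGF to ERK signal that drives cells out of this state. When the inputs are removed, cells pass to a formative state, in which Pou5f1 stays on while the naive factors are switched off.

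The promoters of 7 of the 9 genes were matched in a RefSeq table of gene starts (build GRCm38.p6), with 9 entries in all. Those of 5 genes that the results below turn on are printed as the 250 bases before the start, 5′ to 3′ on the gene's strand, because they can be read beside the shared fall of these genes. Capitals mark matches, on either strand, to CCNCNCCC, the letters of the KLF family motif, and to TTTGCAT, the octamer letters read by POU factors; the octamer was added after the sequences had been seen. The Esrrb start is the internal one at chr12:86421394-86421643 (plus strand), where the main transcript begins. The Tfcp2l1 window is chr1:118627695-118627944 (plus), that of Klf4 is chr4:55532476-55532725 (minus), that of Zfp42 is chr8:43307010-43307259 (minus) and that of Nanog is chr6:122707239-122707488 (plus). The Nanog window precedes the first of its 2 table starts, and the main Nanog transcript begins a little downstream, near the second.
Esrrb: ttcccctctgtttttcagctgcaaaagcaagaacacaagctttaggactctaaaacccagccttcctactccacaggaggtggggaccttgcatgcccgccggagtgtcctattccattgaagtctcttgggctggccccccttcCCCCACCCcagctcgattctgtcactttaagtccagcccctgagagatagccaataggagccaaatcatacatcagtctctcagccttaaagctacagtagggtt
Tfcp2l1: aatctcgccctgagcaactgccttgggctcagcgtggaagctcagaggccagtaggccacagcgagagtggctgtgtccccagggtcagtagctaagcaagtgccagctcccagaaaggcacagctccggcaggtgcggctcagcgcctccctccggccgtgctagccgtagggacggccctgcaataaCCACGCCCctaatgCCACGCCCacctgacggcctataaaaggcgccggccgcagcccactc
Klf4: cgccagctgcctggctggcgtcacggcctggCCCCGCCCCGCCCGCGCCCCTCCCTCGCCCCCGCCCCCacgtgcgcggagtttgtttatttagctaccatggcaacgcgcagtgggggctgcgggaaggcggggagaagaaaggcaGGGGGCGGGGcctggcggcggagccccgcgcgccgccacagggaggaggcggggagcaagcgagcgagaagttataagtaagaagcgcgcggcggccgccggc
Zfp42: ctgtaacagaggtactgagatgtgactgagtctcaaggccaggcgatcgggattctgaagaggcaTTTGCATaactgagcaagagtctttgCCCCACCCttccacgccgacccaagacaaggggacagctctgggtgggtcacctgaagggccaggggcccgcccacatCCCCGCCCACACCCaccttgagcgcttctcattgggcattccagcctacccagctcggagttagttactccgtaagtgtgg
Nanog: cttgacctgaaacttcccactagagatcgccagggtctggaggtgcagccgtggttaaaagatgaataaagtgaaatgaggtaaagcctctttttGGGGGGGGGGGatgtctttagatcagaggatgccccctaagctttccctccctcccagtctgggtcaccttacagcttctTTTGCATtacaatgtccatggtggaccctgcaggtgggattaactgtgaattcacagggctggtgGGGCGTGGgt

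In the full 300-base windows, which add 50 bases after the start, CCNCNCCC was found in 9 of 9 entries, against 49.5% of 32851 entries in the table. The 9 entries belong to 7 genes, and the 2 Nanog windows overlap. Runs of G gave several of the matches at Nanog and at the upstream Esrrb start, and the only Nr0b1 match lies after the start. Klf4 held 9 matches, counted with overlaps, in GC-rich sequence (74.3% GC). The octamer stood 185 bases before the Zfp42 start and 75 bases before the first Nanog start (151 before the second), and 4.63% of all entries hold it. TTCNNNGAA, the letters of the STAT motif, occurred in 1 member entry, 178 bases before the upstream start of Esrrb, against 8.30% of all entries. AAGGTCA, the letters bound by ESRRB, was in none of the 9 entries and in 4.72% of all. These are matches of letters in a short window and not measurements of binding.

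The libraries held 16894327 to 22550952 estimated counts, so that a floor of 3 counts lies at 0.142 to 0.182 CPM (TMM-scaled). Replicate 1 libraries of all 3 groups stood apart from replicates 2 and 3 on the component of log2 CPM that carried 23.3% of the variance. They had more estimated counts (21424276 to 22550952, against 16894327 to 19914020) but fewer genes above 0 (15690 to 17605, against 18166 to 18749). Markers of undifferentiated cells (Pou5f1, Sox2, Utf1, Sall4 and Lin28a) were above 1 CPM in 9 of 9 libraries, and their sum was 1583 to 2740 CPM with LIF2i, 2408 to 2635 CPM without and 2123 to 2715 CPM with CK666. Within this sum the markers moved apart: Sox2 was at 262 to 576 CPM with LIF2i and 82.4 to 181 CPM without, Lin28a at 169 to 231 and 615 to 942 CPM, and Utf1, also in the formative list below, at 30.2 to 72.7 and 239 to 453 CPM. Of markers for other cells, the sum for primitive endoderm was 11.7 to 14.5, 20.5 to 49.4 and 26.6 to 42.3 CPM in the same order. Within it Dab2 was at 2.07 to 4.18, 13.3 to 34.2 and 13.8 to 23.8 CPM. Gata4 was at 6.54 to 9.46, 3.58 to 11.1 and 9.17 to 13.2 CPM. Gata6, Sox17, Sox7 and Pdgfra were at most at 2.32 CPM in any library. The sum for trophoblast was 7.96 to 16.1, 8.46 to 17.5 and 7.54 to 9.62 CPM, and that for fibroblasts, mostly Thy1, was 6.01 to 9.39, 28.4 to 30.5 and 16.3 to 24.4 CPM. No listed marker was at 0 in every library of a group, and the part of these cells in the results below was not tested. In bulk RNA, fewer cells that express a gene and less of its RNA per cell cannot be told apart.

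After withdrawal of LIF2i all 9 factors fell. The loss ran from Nanog, with 23.4% of its mean CPM left, and Klf5, with 14.9% left, to Klf4 with 1.75% and Prdm14 with 0.434%. By edgeR's quasi-likelihood test 9 of 9 were called lower, against 19.7% of all genes tested, and the groups did not overlap in 9 of 9, against 19.2%. Their median log2 fold change was -4.95, against 0.01 over all genes tested. Values below are CPM scaled by TMM, in the order of replicates 1, 2 and 3, and fold changes are log2 values from the fit with the replicate number as a block.

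Esrrb encodes an orphan nuclear receptor that is held on by glycogen synthase kinase 3 inhibition. It lies on chromosome 12 from 86361117 to 86521628 (GRCm38, plus strand). Its level was 1089, 683 and 867 CPM with LIF2i and 20.7, 34.2 and 34.8 CPM without. The lowest self-renewing library was thus far above the highest withdrawn one, and the fall was -4.95 (SE 0.44, edgeR adjusted p = 8.74e-05). Tfcp2l1 (chromosome 1, 118627945 to 118685168, plus strand), a CP2-family factor downstream of LIF and STAT3, was at 1385, 522 and 584 CPM with LIF2i and at 12.1, 20.6 and 16.0 CPM without. It fell by 5.68 (SE 0.58, edgeR adjusted p = 0.000284), and replicate 1 with LIF2i stood well above replicates 2 and 3. Without the replicate 1 libraries its fold change was -4.94, still called.

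The Krüppel-like factors Klf4, Klf2 and Klf5 are zinc finger proteins that bind the same GC-rich letters and can stand in for one another in self-renewal. Klf4 (chromosome 4, 55527143 to 55532466, minus strand), a target of STAT3, was at 348, 167 and 249 CPM with LIF2i and at 3.62, 3.63 and 6.10 CPM without. Its fall of 5.80 (SE 0.33, edgeR adjusted p = 5.72e-06) was the steepest of the 3. Klf2 (chromosome 8, 72319033 to 72321656, plus strand), whose protein is stabilised when MEK is inhibited, went from 266, 138 and 210.05 CPM to 5.60, 6.33 and 6.75 CPM. Its fold change was -5.01 (SE 0.36, edgeR adjusted p = 2.29e-05), and the withdrawn libraries lay close together. Klf5 (chromosome 14, 99298691 to 99315036, plus strand) had 332, 170.2 and 214 CPM with LIF2i and kept 24.8, 28.8 and 52.9 CPM without. It fell by 2.74 (SE 0.31, edgeR adjusted p = 0.000262), and of the 3 relatives it alone stayed above 20 CPM in every withdrawn library.

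Nanog (chromosome 6, 122707489 to 122714633, plus strand) encodes a homeodomain protein at the centre of the network that is also present, at lower levels, outside the naive state. It was at 959, 735 and 742 CPM with LIF2i and at 254, 135 and 182 CPM without. Of the 9 genes it fell least by the estimate, 2.12 (SE 0.20, edgeR adjusted p = 5.2e-05), and its lowest self-renewing library was above its highest withdrawn one. In replicate 3 Klf5 kept slightly more of its level with LIF2i, 24.7% against 24.6% for Nanog, and no difference between genes was tested. Prdm14 (chromosome 1, 13113457 to 13127163, minus strand), a PR-domain protein that represses FGF signalling and DNA methyltransferases, was at 55.7, 43.5 and 46.8 CPM with LIF2i. Without LIF2i it was at 0, 0.363 and 0.270 CPM, which is 0, 7 and 5 counts. The count of 0 allows up to 0.145 CPM in that library, and the fold change of -7.85 (SE 0.50, edgeR adjusted p = 8.66e-06) is therefore imprecise in size. It was -7.10 without the replicate 1 libraries and -8.56 without those of replicate 2.

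Zfp42 (also called Rex1; chromosome 8, 43295063 to 43306980, minus strand) is a zinc finger gene widely used as a reporter of the naive state. It was at 749.5, 490.02 and 785 CPM with LIF2i and at 29.1, 39.7 and 42.8 CPM without, a fall of 4.22 (SE 0.31, edgeR adjusted p = 2.36e-05). Nr0b1 (also called Dax1; chromosome X, 86191764 to 86195947, plus strand), an orphan nuclear receptor without the usual DNA-binding domain, went from 126, 57.0 and 85.1 CPM to 6.56, 5.03 and 6.21 CPM. Its fall was 3.89 (SE 0.41, edgeR adjusted p = 0.000162). Among self-renewing libraries replicate 1 was the highest for 8 of the 9 genes and replicate 2 the lowest for 9 of 9, and all 9 genes were lower after withdrawal in 3 of 3 same-numbered pairs, against 31.5% of all genes tested. All 9 stayed called in each of the 18 alternatives tried.

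**Figure D1:**
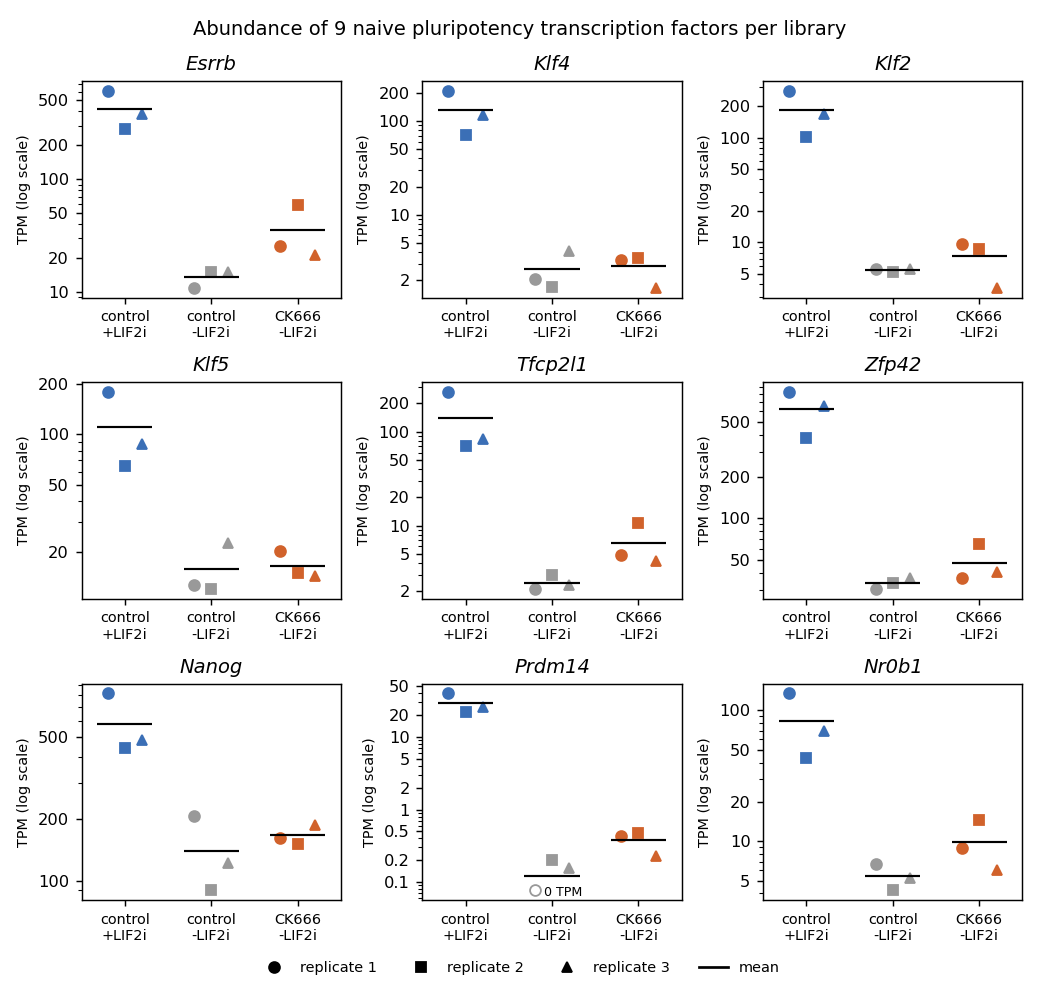
Abundance of each gene in TPM (log scale) in every library, by group; symbols give the replicate number, lines the group means of 3 libraries, and the open circle a value of 0 TPM. For all 9 genes the control libraries with LIF2i lie above both groups without it, and Nanog has the smallest gap.

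Levels of different genes were compared in TPM, which divides by transcript length. With LIF2i the order of the means was Zfp42 (620 ± 224 TPM, SD, n = 3), Nanog (581 ± 205), Esrrb (422 ± 168), Klf2 (182 ± 89.1), Tfcp2l1 (140 ± 108), Klf4 (133 ± 71.3), Klf5 (110.2 ± 60.0), Nr0b1 (82.6 ± 47.3) and Prdm14 (29.3 ± 9.49). Neighbours in this order overlapped between libraries, except at the steps from Esrrb to Klf2 and from Nr0b1 to Prdm14. Without LIF2i Nanog was highest at 140 ± 60.0 TPM, followed by Zfp42 at 33.8 ± 3.23 TPM, and neither overlapped its neighbours. Below them Klf5 (15.7 ± 5.87 TPM) and Esrrb (13.7 ± 2.36 TPM) overlapped, as did Klf2 (5.45 ± 0.231) with Nr0b1 (5.40 ± 1.26) and Klf4 (2.63 ± 1.31) with Tfcp2l1 (2.46 ± 0.431), while Prdm14 (0.119 ± 0.106) was apart at the bottom. Klf5 thus stood behind 6 other genes with LIF2i and behind 2 without.

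The make-up of the pool changed with it. The 9 genes summed to 3354.5, 1480.6 and 2063.4 TPM with LIF2i, 277, 165 and 215 TPM without, and 272, 327 and 279.7 TPM with CK666. Nanog made up 25.9% ± 3.58 of this sum with LIF2i, 62.0% ± 10.9 without and 57.5% ± 10.6 with CK666 (SD, n = 3 each). Zfp42 gave 27.3% ± 3.86, 16.3% ± 4.83 and 16.0% ± 3.37 in the same order. The share of Esrrb was 18.5% ± 0.480, then 6.70% ± 2.58 and 11.7% ± 5.51. In every withdrawn library, with or without CK666, Nanog alone had a larger share than in any self-renewing library, and among these libraries Esrrb had its highest share, 18.0%, in replicate 2 with CK666.

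**Figure D2:**
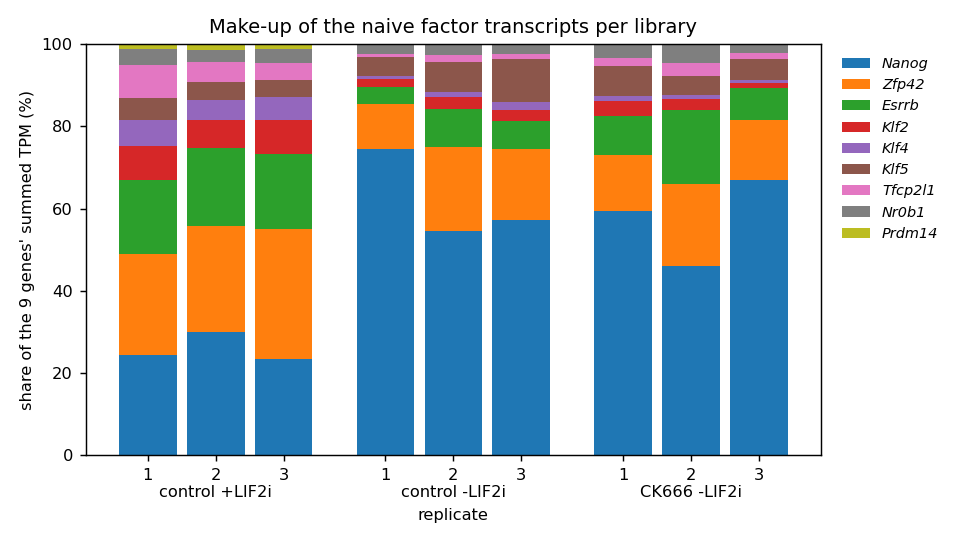
Share of each gene, in percent, in the summed TPM of the 9 genes, as stacked bars for each library. Nanog takes 25.9% on average in self-renewing controls and 62.0% in withdrawn controls, where Klf2, Klf4, Tfcp2l1 and Prdm14 shrink to thin bands.

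Single transcripts were looked at because several of these genes have more than 1 start. Of 22 annotated transcripts of the 9 genes, 20 had a mean of at least 0.5 TPM in some group. Esrrb-203, which begins at the internal start printed above, carried 63.2% of the gene's TPM with LIF2i, 64.6% without and 61.7% with CK666, and Esrrb-206 carried 35.1%, 32.3% and 34.9%. Esrrb therefore fell through both main transcripts in proportion, and Esrrb-204, from the upstream start, had 0.760% with LIF2i. Nanog-201 held 97.7%, 98.4% and 97.7% of its gene's TPM and Zfp42-201 held 90.4%, 91.9% and 89.8%. Tfcp2l1-202 averaged 4.63 TPM with LIF2i and was listed at 0 in the other 6 libraries. Klf2, Prdm14 and Nr0b1 each have 1 annotated transcript. Reads shared between transcripts were divided by estimation, and no error of that division was used here.

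CK666 was set against control cells, both without LIF2i, to ask whether Arp2/3 inhibition changes the state reached after 72 h. None of the 9 factors passed the test, and their levels stayed far below those of self-renewing cells. All 9 estimates were above 0, from 0.09 for Klf5 to 1.59 for Prdm14 on the log2 scale, where 51.7% of all genes tested were. Klf4 and Klf5 kept this direction in only 14 of 18 alternatives each. The ratios of mean CPM, CK666 over control, were 2.72 for Tfcp2l1, 2.52 for Esrrb and 1.91 for Nr0b1. For Prdm14 the ratio was 3.01, or 2.45 with the control library at 0 set to its floor. In these 4 of 9 genes the groups did not overlap in CPM with CK666 higher, against 8.79% of all genes tested. For Prdm14 the nearest libraries both had 7 counts, and library scaling alone separated them. By edgeR 0 of 9 were called, against 1.15% of genes called higher, and DESeq2 also called 0. Over the 18 alternatives 0 to 1 were called. In the edgeR fit 4 had an unadjusted p under 0.05, against 19.7% of all genes in either direction. Over the alternatives this count ran from 1 to 5.

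Esrrb was at 48.5, 129 and 48.5 CPM with CK666, each above the withdrawn controls at 20.7 to 34.8 CPM. Its difference was 1.26 (SE 0.38, unadjusted 95% interval 0.37 to 2.14, edgeR adjusted p = 0.127). Tfcp2l1 was at 29.4, 74.7 and 28.4 CPM, against 12.1 to 20.6 CPM in controls. The groups again did not overlap, with a difference of 1.37 (SE 0.49, interval 0.21 to 2.53, edgeR adjusted p = 0.187). In both genes replicate 2 with CK666 was more than double the other CK666 libraries. Prdm14 had 14, 15 and 7 counts, or 0.663, 0.849 and 0.391 CPM, against 0, 7 and 5 counts in controls. Its difference of 1.59 (SE 0.65, interval 0.12 to 3.06, edgeR adjusted p = 0.217) rests on these few counts. Nr0b1 was at 9.19, 17.8 and 7.04 CPM against 5.03 to 6.56 CPM, a difference of 0.92 (SE 0.39, interval 0.03 to 1.81, edgeR adjusted p = 0.242), and in TPM its groups overlapped. Without replicate 2 of CK666 the differences were 0.67 for Esrrb, 0.76 for Tfcp2l1, 0.24 for Nr0b1 and 1.35 for Prdm14.

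The other 5 genes overlapped between the groups. Zfp42 was at 37.1, 77.2 and 46.2 CPM with CK666, against 29.1 to 42.8 CPM in controls, a difference of 0.51 (interval -0.12 to 1.14, edgeR adjusted p = 0.35). Without replicate 2 of CK666 the difference was 0.08 for Zfp42, 0.25 for Nanog and 0.03 for Klf2. Nanog was at 211, 230.2 and 273 CPM against 135 to 254 CPM, a difference of 0.37 (interval -0.06 to 0.79, edgeR adjusted p = 0.323). For Nanog the control library of replicate 1 was the high one, and without the replicate 1 libraries the difference was 0.65 and passed (edgeR adjusted p = 0.0102). The Krüppel-like factors also overlapped. Klf2 was at 10.3, 10.8 and 4.41 CPM with CK666 (difference 0.42, interval -0.35 to 1.19, edgeR adjusted p = 0.548). Klf4 was at 5.92, 5.21 and 3.30 CPM (difference 0.12, interval -0.59 to 0.83, edgeR adjusted p = 0.879). Klf5 was at 41.8, 36.4 and 33.0 CPM (difference 0.09, interval -0.60 to 0.77, edgeR adjusted p = 0.908). With CK666 the Klf2 libraries lay on both sides of the controls, those of Klf5 within their range and those of Klf4 within it or below, and the intervals leave room for changes in either direction.

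CK666 and control cells were also compared within same-numbered pairs, and no difference between genes was tested. Differences of log2 CPM, with a prior count of 2, were above 0 in 3 of 3 pairs for 5 of 9 genes, against 25.3% of all genes tested. For Esrrb they were 1.22, 1.91 and 0.48 in pairs 1, 2 and 3, and for Tfcp2l1 1.28, 1.86 and 0.82. Zfp42, Nr0b1 and Prdm14 were likewise above 0 throughout, and pair 3 was the smallest in all 5 genes. Klf2, Klf4 and Klf5 were above 0 in pairs 1 and 2 and at -0.60, -0.87 and -0.68 in pair 3. Nanog had -0.27 in pair 1 and 0.77 and 0.58 in pairs 2 and 3. Pair 3 was thus the lowest for the 3 Krüppel-like factors as well as for those 5 genes, with Nanog the exception. Whether that pair differs in handling was not tested.

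**Figure D3:**
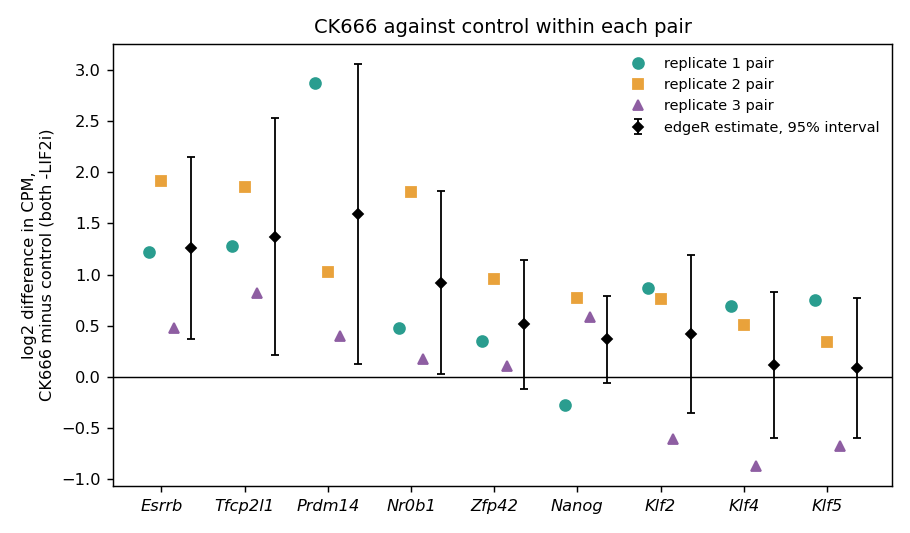
Difference in log2 CPM between CK666 and control cells, both without LIF2i, within each same-numbered pair, with the edgeR estimate and its unadjusted 95% interval (black). Esrrb, Tfcp2l1, Prdm14, Nr0b1 and Zfp42 are above 0 in all 3 pairs, and the 3 Krüppel-like factors are below 0 in pair 3 only.

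Set against self-renewing cells, CK666-treated cells also had less of these factors. By edgeR 9 of 9 were called lower, against 17.1% of all genes tested, and the groups did not overlap in 9 of 9, against 16.8%. The log2 fold changes were -6.26 (SE 0.44) for Prdm14, -5.68 (SE 0.32) for Klf4, -4.59 (SE 0.35) for Klf2 and -4.31 (SE 0.55) for Tfcp2l1. Those of Zfp42, Esrrb, Nr0b1, Klf5 and Nanog were -3.70, -3.69, -2.97, -2.65 and -1.75, and the largest edgeR adjusted p of the 9 was 0.000893. Of the mean CPM with LIF2i, CK666 cells kept 8.57% for Esrrb, where withdrawn controls kept 3.40%. For Tfcp2l1 the shares were 5.32% and 1.95%, for Nr0b1 12.7% and 6.64%, and for Klf4 1.89% and 1.75%. The shares of Esrrb, Tfcp2l1 and Nr0b1 leaned on replicate 2 with CK666. In pairs 1, 2 and 3 CK666 cells had 4.46%, 18.9% and 5.59% of the self-renewing level of Esrrb. For Tfcp2l1 these were 2.12%, 14.3% and 4.85%, and for Nr0b1 7.30%, 31.3% and 8.27%. Without that library the log2 fold changes were -4.21, -4.81 and -3.61, all still called. Over the 18 alternatives Esrrb ran from -4.36 to -3.21, Tfcp2l1 from -5.05 to -3.54 and Nr0b1 from -3.71 to -2.53. This comparison and the withdrawal share the self-renewing libraries, so their values are set side by side and not compared further.

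**Figure D4:**
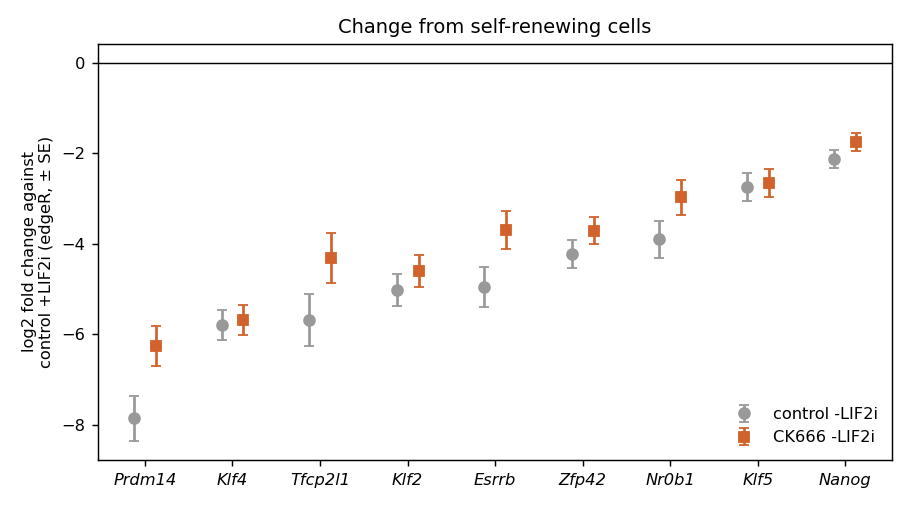
Log2 fold change against self-renewing controls (edgeR, error bars ± SE) for withdrawn controls and CK666 cells. All 18 estimates are below 0, from -7.85 for Prdm14 in withdrawn controls to -1.75 for Nanog with CK666; both series use the same self-renewing libraries.

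Other genes of the naive network, a list of 20 that were all tested, mostly fell with the 9. After withdrawal 14 of 20 were called lower by edgeR and 2 higher, against 19.7% and 21.1% of all genes tested, with a median log2 fold change of -1.82. Tcl1, a co-activator of AKT, changed by -6.50 (SE 0.40, edgeR adjusted p = 9.16e-06) and Tbx3, a T-box factor downstream of LIF, by -5.28 (SE 0.55, edgeR adjusted p = 0.000278). The 2 that rose were Tfe3 (0.79, SE 0.19, edgeR adjusted p = 0.0082) and Tcf7l1 (0.67, SE 0.14, edgeR adjusted p = 0.00526), the latter known for driving exit from the naive state; without the block Tcf7l1 was not called (adjusted p = 0.192). Pou5f1, Gbx2, Zfp281 and Dppa3 were not called. With CK666, Tbx3 was higher by 3.31 (SE 0.52, edgeR adjusted p = 0.0314) and Mybl2, a cell cycle factor, by 0.96 (SE 0.18, edgeR adjusted p = 0.036). Socs3, the feedback inhibitor of LIF signalling, was lower, at -0.76 (SE 0.16, edgeR adjusted p = 0.0469), where 0.894% of all genes were called lower and 1.15% higher. The other 17 did not pass, and none of the 20 was called without the block. Of 18 alternatives, Tbx3 was called in 7, Mybl2 in 9 and Socs3 in 6, and the weakest estimate for Socs3 was -0.36. The count over the list ran from 0 without the block to 6 with only the 2 groups fitted. Against self-renewing cells CK666 cells had 13 of the 20 lower, with Tcl1 at -5.24 and Socs3 at -4.64, and 1 higher, against 17.1% and 19.8% of all genes tested. The one called higher was Tcf7l1 at 0.54 (edgeR adjusted p = 0.0167, and 0.286 when the block was dropped; called in 13 of 18 alternatives).

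Formative state genes moved the other way. Of 14 listed and tested, 11 were called higher after withdrawal and 0 lower, against 21.1% and 19.7% of all genes tested, with a median of 1.79, Fgf5 at its bound included. Fgf5, the growth factor that marks this state, was at least 293-fold higher, against a floor of 3 counts per library, and Sox3 rose by 5.65 (SE 0.42, edgeR adjusted p = 1.87e-05). With CK666, Fgf5 was the only one of the 14 called, lower at -3.16 (SE 0.43, edgeR adjusted p = 0.021), against 0.894% of all genes called lower. It was called in 10 of 18 alternatives and not without the block. The number of list genes called ran from 0 to 7 over the alternatives, with 7 when replicate 1 was left out. The median over the list was -0.44, with 12 of 14 estimates below 0, against 48.3% of all genes tested, and 9 of 14 were called higher than in self-renewing cells, against 19.8% of all genes tested.

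Relatives of the 9 in the same protein families moved in both directions. Of 23 listed, 22 were tested, and after withdrawal edgeR called 5 lower, 3 higher and 14 not, with a median of -0.00. These counts are near the background of 19.7% of all genes called lower and 21.1% called higher. Prdm1 fell by 2.45 (SE 0.33, edgeR adjusted p = 0.000442) and Klf8 by 2.38 (SE 0.31, edgeR adjusted p = 0.000374). Klf7 rose by 1.45 (SE 0.15, edgeR adjusted p = 0.000112), and Esrrg, a relative of Esrrb, was at least 3.02-fold higher from at most 2 counts with LIF2i. Its call (edgeR adjusted p = 0.0409) held in 4 of 17 alternatives, with adjusted p of 0.0328 to 0.32. Without the block 5 of the 22 were called, against 24.0% of all genes tested. With CK666, Klf15 alone was called, higher by 0.89 (SE 0.19, edgeR adjusted p = 0.0485), against 1.15% of all genes called higher. It was called in 6 of 18 alternatives and not without the block, and the count of relatives called ran from 0 to 4, with 4 when replicate 1 was left out.

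The genes whose level followed the 9 most closely were found by Pearson r, across the 9 libraries, with the mean of the 9 genes' standardised log2 CPM, over the 9490 other protein-coding genes whose mean log2 CPM reached 3. They were Jam2 (r = 0.991), a junction adhesion molecule, Tead4 (0.99), a TEA-domain factor, Plekhh1 (0.989), Lifr (0.988), the LIF receptor, and Camk1d (0.988). Each was lower after withdrawal, with log2 fold changes of -6.90, -3.72, -2.53, -2.19 and -2.93. The 9 genes themselves had an r with the mean of the other 8 of 0.944 for Nanog to 0.992 for Zfp42. These values are descriptions over 9 libraries in 3 groups, and the step between self-renewing and withdrawn libraries sets much of them.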

How the data were processed

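Transcript abundance was measured by poly-A RNA sequencing in 9 libraries, 3 per group, grouped by sample title. The deposited tables list, per the file headers, for each transcript a length, an effective length, estimated counts (not normalised, and not necessarily whole) and TPM, scaled by the authors within each library. The effective length column, deposited as another value per library, was used only for a length correction. Per the submitters' processing notes, FastQC, cutadapt 1.8.1, kallisto and sleuth were used, with mm10 and a human build both named and no role given. Whether counting used strand is not given in the sources used here.

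Of 119414 transcripts, 116640 (97.7%) matched a gene of GENCODE M21 (GRCm38); the other 2774 were left out. Estimated counts were summed per gene and rounded. Tests were run with edgeR 4.0.16 under R 4.3.3 (TMM scaling, expression filter, robust quasi-likelihood test), all 9 libraries in one fit with 4 residual degrees of freedom and Benjamini-Hochberg adjusted p-values under 0.05. SE values were derived from the test statistic. The replicate number was a block, since the study's design text describes the biological replicates as paired. Deviations from group means correlated at a median of 0.41 between same-numbered and -0.37 between differently numbered libraries. Such deviations cancel within a group, so positive values between same-numbered libraries push the others negative on average. Libraries of replicates 2 and 3 correlated at 0.214 to 0.286 with each other and at -0.525 to -0.354 with those of replicate 1, so the contrast largely reflects replicate 1 standing apart. The fit was tested on simulated data. Floors cover counting error only, while the intervals of fold changes come from the edgeR fit and include the spread between replicates. The replicates are biological by the design text.

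Named genes are the 9 members, the list genes called with the largest changes in each direction, and the 5 genes most alike in pattern. The members and lists were chosen with earlier results of these data known. Alternatives were DESeq2 1.42.0, RLE scaling, no expression filter, an effective-length offset, fits without the block or with 2 groups, and fits leaving out libraries. Parts of Nanog (up to 245 bases) match 41 other genes. For those quantified, the highest counts in a library ran from 0 (Nanog-ps1) to 28051 (Eprs). Whether their reads reached the Nanog estimate was not tested. Klf4, Klf5 and Zfp42 have pseudogene copies with at most 2 counts in a library. Tfcp2l1 shares 1.38% of its exonic bases with a small nuclear RNA gene.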

Additional observations from a re-analysis of the deposited data

How the results depend on the processing

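For withdrawal, and for CK666 against self-renewing cells, 9 of 9 factors were called lower in all 18 alternatives. Over all genes, the counts without the replicate block were 3509, 0 and 2966 for withdrawal, CK666 during withdrawal and CK666 against self-renewal, beside 5967, 300 and 5408 with it; the 0 had 1251 genes at an unadjusted p under 0.05, and the block changed no call of the 9 factors. For CK666 during withdrawal the count was 1136 with DESeq2, 565 without the filter, 148 with a length offset and 1367 with only the 2 groups fitted. Leaving out libraries gave 3099 to 6588 genes for withdrawal, 0 to 1811 for CK666 and 2413 to 6129 for CK666 against self-renewal, with the highest counts without replicate 1.

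Of the factors, the number called for CK666 was 0 to 1 when libraries were left out: 1 without replicate 1 (Nanog, 0.65) and 1 without replicate 1 of the controls with LIF2i (Tfcp2l1, 1.36). It was 1 with only the 2 groups fitted (Tfcp2l1, 1.32), where Prdm14 did not pass the filter. Klf4 turned to -0.18 without replicate 1, -0.12 without replicate 2, -0.24 without replicate 1 of the withdrawn controls and -0.18 without replicate 2 of CK666; Klf5 turned to -0.20, -0.07, -0.29 and -0.09; their highest values were 0.61 and 0.52, without replicate 3. The cause was not tested. With 3 libraries per group, the wide intervals for CK666 do not show that a factor was unaffected.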
